A study of Arabidopsis thaliana with 6 samples.

Results

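Calcium-dependent protein kinases (CPKs) join a protein kinase and a calmodulin-like calcium sensor in 1 polypeptide, so that a rise in cellular calcium switches on phosphorylation without a separate sensor protein. In Arabidopsis they are best known from immune signalling, from abscisic acid responses of guard cells, and from growth. The genes described here are CPK1, CPK2, CPK3, CPK4, CPK5, CPK6, CPK11, CPK28, CPK29 and CPK32, 10 of the 34 CPK genes, chosen by locus identifier from a table of 33557 loci; all 10 have a row in it. The locus taken as CPK3, AT4G23650, carries the older symbol CDPK6 in RefSeq and is a different gene from CPK6, AT2G17290. CPK11, AT1G35670, carries the symbol CDPK2 there and is a different gene from CPK2, AT3G10660.

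The levels come from mRNA sequencing of the whole aerial part of Col-0 plants, 21 days after germination, grown on soil at 22 °C in a 12 h photoperiod and sampled at zeitgeber time 12, the end of the light period. The groups are the wild type and the mutant camta1/2/3/sid2, with 3 libraries each. The mutant combines lesions in CAMTA1, CAMTA2 and CAMTA3, which encode calmodulin-binding transcription factors, with sid2, a lesion in the salicylic acid synthesis gene ICS1; the labels give no alleles. The comparison asks which transcripts differ when these calcium-linked factors and this salicylic acid route are lost together, and the effects of the lesions cannot be told apart. The table gives 1 FPKM value (fragments scaled to transcript length and library size) per genotype and locus, which the authors formed from the libraries, so no difference below has a replicate check, an error or a p-value, and depth is unknown.

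CAMTA1 was listed at 13.6 FPKM in wild-type plants and 3.30 in the mutant, CAMTA2 at 9.25 and 6.32, CAMTA3 at 9.94 and 2.68, and ICS1 at 4.56 and 3.73. Of the leaf genes, the antenna gene LHCB3 was 1760 FPKM and 815 in the same order, the Rubisco activase gene RCA 1944 and 3121, and the phloem sugar transporter gene SUC2 121 and 102. The pollen markers VGD1, CPK17 and CPK34 were all at or below 0.0800. Of the root markers, PYK10 was 51.6 and 55.8 and CASP1 0.940 and 1.57, in samples labelled as aerial parts. Guard cell markers, which bear on the kinases known from stomata, summed to 45.4 FPKM in wild-type plants and 42.9 in the mutant over 5 genes, none listed at 0. The part of these leaf, root and guard cell markers in the results was not tested. In whole aerial tissue, fewer cells of a type and less RNA per cell cannot be told apart.

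Many plant kinases of this family are tethered to membranes by a lipid, myristate, attached to a glycine that directly follows the first methionine, often with a palmitate on a cysteine nearby. The first 36 coding bases of each gene are shown because the genes differ in this feature, which is set beside their levels below. They were read from RefSeq (TAIR10.1, longest coding sequence of each gene), 5′ to 3′ on the coding strand, with codon 2 in capitals.
CPK1: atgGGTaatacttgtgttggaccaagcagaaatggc
CPK2: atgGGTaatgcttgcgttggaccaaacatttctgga
CPK5: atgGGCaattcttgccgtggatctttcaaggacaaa
CPK6: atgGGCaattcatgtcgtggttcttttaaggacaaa
CPK3: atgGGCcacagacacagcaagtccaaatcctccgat
CPK28: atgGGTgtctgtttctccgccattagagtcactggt
CPK32: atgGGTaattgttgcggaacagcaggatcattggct
CPK4: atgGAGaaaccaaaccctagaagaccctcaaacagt
CPK11: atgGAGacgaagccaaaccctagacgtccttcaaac
CPK29: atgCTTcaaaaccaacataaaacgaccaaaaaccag

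Codon 2 encodes glycine in 7 of the 10 genes and in 30 of all 34 CPK genes. CPK26, counted among the 30 by its longest coding sequence, has this codon in 1 of its 4 coding transcripts. The pair CPK4 and CPK11 has GAG, a glutamate codon, in its place. CPK29 has CTT in this gene model, and a later in-frame methionine at codon 28 is followed by a glycine codon. Counted from that methionine, codon 4 encodes cysteine. Of the 7 genes with glycine, all but CPK3 also have a cysteine codon between codons 3 and 6: CPK1, CPK2, CPK5 and CPK6 at codon 5, CPK28 at codon 4, and CPK32 at codons 4 and 5. The fourth gene of the whole family without glycine at codon 2 is CPK12, a close relative of CPK4 and CPK11.

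Transcripts of these kinases were on the whole slightly less abundant in the mutant. In 8 of the 10 genes the mutant value was below the wild-type value, and CPK4 and CPK11 were above it. Over the 18547 loci with at least 1 FPKM in at least 1 genotype, to which all 10 genes belong, 64.6% were lower in the mutant. CPK2, among the 8 lower genes, belongs to them only through its wild-type value of 1.40 FPKM, beside 0.803 in the mutant. When all ratios are scaled to a median of 0, the lower share of all loci is 50.0%, and the kinases are still 8 lower and 2 higher. The log2 ratio used from here on is log2(FPKM + 1) of the mutant minus that of the wild type, which understates differences of genes with low values. Its median was -0.27 over the 10 kinases and -0.06 over all analysed loci. None of the 10 reached 1.5-fold on this scale in either direction, where 1.99% of all analysed loci were at least that much lower and 1.81% at least that much higher. Summed over the 10 genes, the level was 155 FPKM in wild-type plants and 131 in the mutant.

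**Figure D1:**
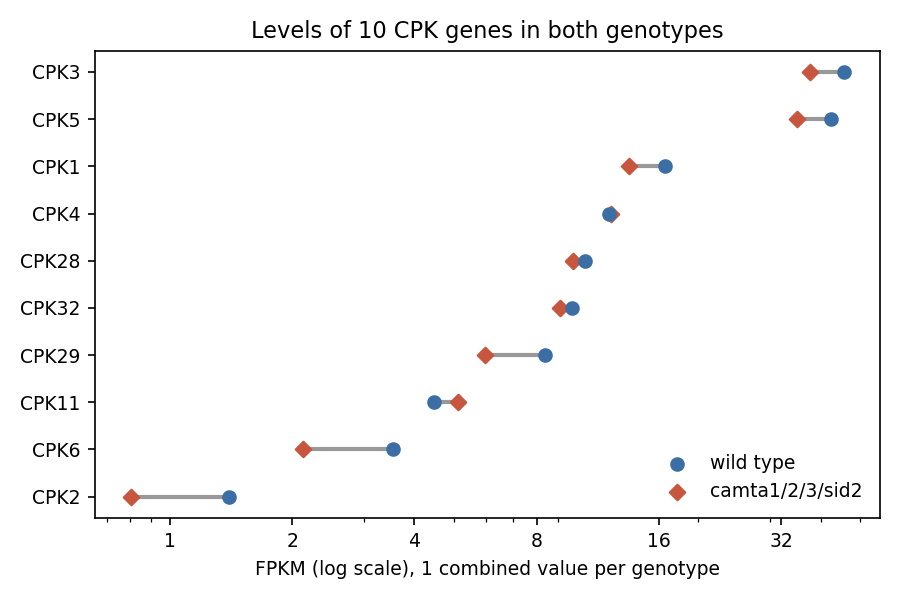
FPKM of the 10 CPK genes on a log axis, with a circle for the wild type and a diamond for camta1/2/3/sid2; each symbol is 1 combined value and has no error bar. The genes span 1.40 to 45.6 FPKM in the wild type, their order is the same in both genotypes, and the symbols lie farthest apart for CPK2, CPK6 and CPK29.

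The order of the levels was the same in both genotypes. CPK3 and CPK5 stood well above the others, at 45.6 and 42.3 FPKM in the wild type, and CPK1 followed at 16.5. CPK4, CPK28, CPK32 and CPK29 lay close together between 12.0 and 8.40 FPKM, and CPK11, CPK6 and CPK2 were the least abundant. Whether neighbours in this order differ beyond the spread between libraries cannot be assessed from 1 value per genotype. CPK3 alone made up 15.3% of the summed FPKM of the 34 CPK genes in wild-type plants and 14.1% in the mutant, and the 10 genes together 51.8% and 49.4%.

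CPK5 and CPK6 are closely related kinases that act early in pattern-triggered immunity, where CPK5 phosphorylates the NADPH oxidase RBOHD. CPK5 (AT4G35310) was 42.3 FPKM in wild-type plants and 34.9 in the mutant, giving a log2 ratio of -0.27. CPK6 (AT2G17290) was 3.54 and 2.13 FPKM, 1.66-fold lower by plain FPKM, and its log2 ratio of -0.54 was the lowest of the 10. Both genes were therefore lower in the mutant, CPK6 by the larger factor. Of all analysed loci, 10.3% had a lower log2 ratio than CPK5 and 2.42% a lower one than CPK6.

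CPK1 and CPK2 form another close pair, with roles in the oxidative burst that follows activation of intracellular immune receptors. CPK1 (AT5G04870) was 16.5 FPKM in wild-type plants and 13.5 in the mutant, giving a log2 ratio of -0.28. CPK2 (AT3G10660) was 1.40 and 0.803 FPKM, 1.74-fold lower by plain FPKM, with a log2 ratio of -0.41. Again both members of the pair were lower, and the less abundant one by the larger factor. In the RefSeq annotation, CPK1 spans chr5:1416564-1420554. It shares 3970 bases, nearly its whole length, on the same strand with AT5G04880, a transcribed pseudogene listed at 5.58 and 5.52 FPKM. The sources used here do not say how reads of the shared stretch were divided, so the CPK1 level is uncertain. CPK2 overlaps its same-strand neighbour AT3G10650 by 219 bases, and that gene was at 15.2 FPKM in both genotypes. Overlaps with a neighbour are short for CPK3, at 14 bases, CPK28, at 13 bases, and CPK4, at 29 bases, and RefSeq gives none for the other 5 genes.

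CPK4 and CPK11 went the other way. Both phosphorylate abscisic acid responsive transcription factors and also act in immune signalling. CPK4 (AT4G09570) was 12.0 FPKM in wild-type plants and 12.1 in the mutant, giving a log2 ratio of 0.01. CPK11 (AT1G35670) was 4.48 and 5.11 FPKM, 1.14-fold higher, with a log2 ratio of 0.16. CPK4 was thus almost level between the genotypes, and CPK11 was the highest of the 10, with 86.5% of all analysed loci below it. These are the genes with GAG at codon 2 in the coding starts shown above. CPK12 (AT5G23580), their relative that also lacks the glycine codon, was 7.92 and 8.27 FPKM, a log2 ratio of 0.06. CPK29, the remaining gene without glycine at codon 2, was lower in the mutant, with a log2 ratio of -0.43. It lacks glycine there only if translation starts at the first methionine of its gene model and not at codon 28. CPK27, CPK7 and CPK30 have the glycine codon and had log2 ratios of 0.16, 0.02 and 0.00. CPK7 and CPK30 were thus almost level between the genotypes. The grouping by codon 2 was made with these values known, and with 1 value per genotype it carries no test.

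**Figure D2:**
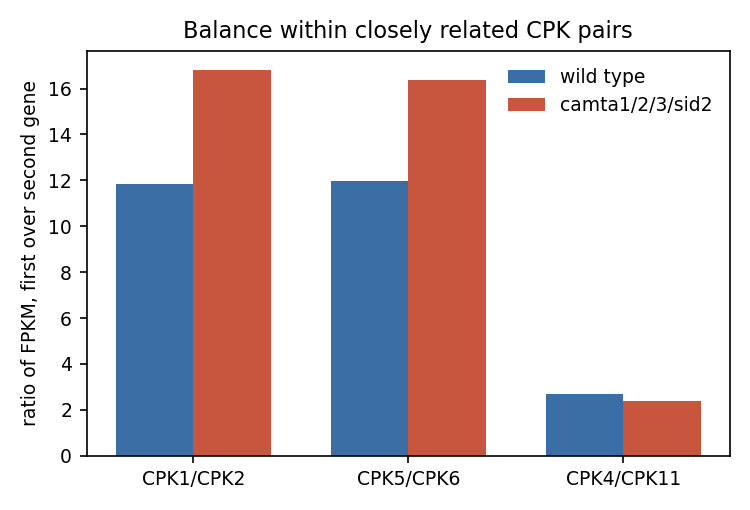
Ratio of FPKM between the first and the second gene of 3 closely related CPK pairs, with bars for the wild type and for camta1/2/3/sid2; each bar is the ratio of 2 combined values and has no error bar. The ratio is higher in the mutant for CPK1 over CPK2 and for CPK5 over CPK6, and lower for CPK4 over CPK11.

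The balance within these pairs does not depend on the scaling of the libraries. CPK1 was 11.8 times as abundant as CPK2 in the wild type and 16.8 times in the mutant. This ratio rests on a CPK1 level that shares bases with AT5G04880 and on a mutant CPK2 value of 0.803 FPKM. CPK5 was 12.0 times as abundant as CPK6 in the wild type and 16.4 times in the mutant. In the third pair the ratio of CPK4 to CPK11 was 2.69 and 2.38. In each pair the less abundant gene had the larger factor between genotypes, downward in the first 2 pairs and upward in the third. The coding sequences of each pair are 86.2% (CPK1 and CPK2), 86.5% (CPK5 and CPK6) and 88.1% (CPK4 and CPK11) identical in aligned bases, and the longest identical stretches are 44, 41 and 53 bases. Reads no longer than such a stretch could come from either gene; the sources used here do not give the read length. Over all 45 pairs of the 10 genes, identity ranged from 63.2% to 88.1%.

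CPK28 limits immune signalling by promoting the turnover of the receptor-like cytoplasmic kinase BIK1 through the ubiquitin ligases PUB25 and PUB26, and it also controls stem growth. CPK28 (AT5G66210) was 10.5 FPKM in wild-type plants and 9.83 in the mutant, 1.07-fold lower. Its log2 ratio of -0.09 lies near the middle of the table, with 43.1% of all analysed loci below it. Among the genes on which CPK28 acts, BIK1 was 6.96 FPKM in wild-type plants and 9.18 in the mutant. PUB25 was 5.04 and 4.97, and PUB26 was 8.35 and 8.91.

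CPK3 acts with CPK6 in guard cells, where both regulate ion channels during abscisic acid responses. CPK3 (AT4G23650) was 45.6 FPKM in wild-type plants and 37.6 in the mutant, giving a log2 ratio of -0.28. By plain FPKM, CPK3 was 1.22-fold lower, CPK1 1.23-fold and CPK5 1.21-fold. The guard cell anion channel gene SLAC1 was 6.08 and 5.32 FPKM, and its relative SLAH3 was 3.75 and 3.32. CPK3, CPK5 and CPK1 are the 3 most abundant of the 10 genes, and each was lower by nearly the same factor.

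CPK29 and CPK32 are known from other settings. CPK29, which phosphorylates PIN auxin transporters, is AT1G76040 and was 8.40 FPKM in wild-type plants and 5.98 in the mutant. This is 1.41-fold lower, with a log2 ratio of -0.43, below which lay 3.72% of all analysed loci. CPK32 (AT3G57530), which takes part in nitrate signalling together with CPK10 and CPK30, was 9.77 and 9.12 FPKM. Its log2 ratio was -0.09, close to that of CPK28. The nitrate-responsive transcription factor NLP7 was 13.9 and 15.5 FPKM, and NLP6 was 3.76 and 3.20.

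**Figure D3:**
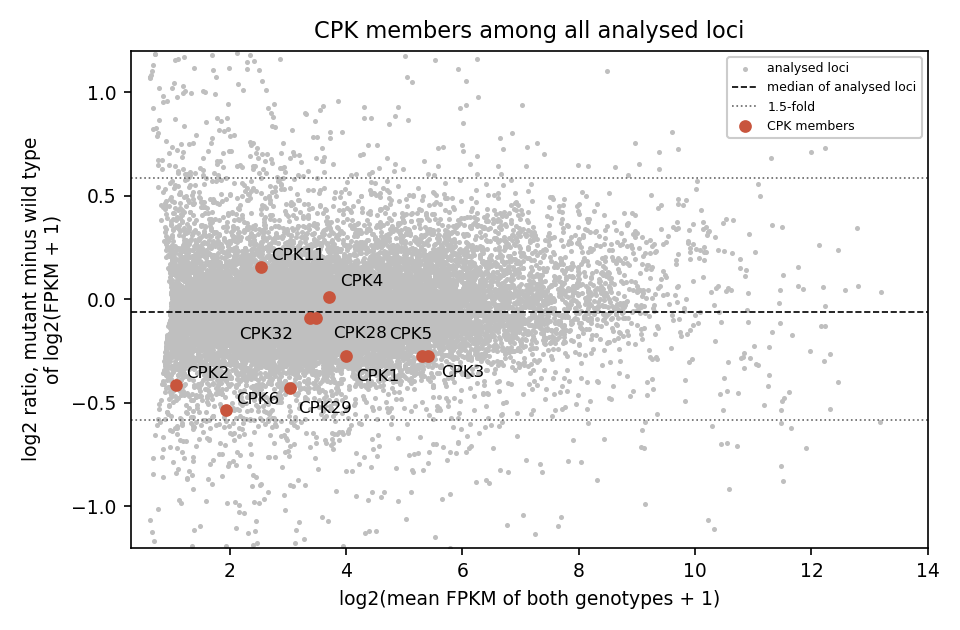
Log2 ratio of log2(FPKM + 1), mutant minus wild type, against log2 of the mean FPKM of both genotypes plus 1, for the analysed loci (grey) and the 10 CPK genes (red); dotted lines mark 1.5-fold, the dashed line marks the median of -0.06, and 195 loci beyond a log2 ratio of 1.2 in either direction are not drawn. All 10 CPK genes lie between the dotted lines, 8 of them below the dashed line.

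By plain FPKM without a pseudocount, CPK2 and CPK6 were at least 1.5-fold lower, and the other 8 were not. The same was true of 3.07% of the 18464 analysed loci above 0 in both genotypes. Both are genes below 4 FPKM. CPK1, CPK3 and CPK5, each above 16 FPKM in the wild type, had log2 ratios between -0.27 and -0.28. Of the 10 genes, CPK1, CPK2, CPK6 and CPK29 were among the lowest 10% of all analysed loci by log2 ratio, and CPK3 and CPK5 lay just above the edge of that range. CPK2 passed the filter only through its wild-type value.

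CAMTA factors bind a CGCG box, here CGCG preceded by any base but T and followed by any base but A, a pattern that reads the same on both strands. In the 300 bases before the annotated gene start, 1 of the 10 genes has this box, CPK29, against 7.18% of 27444 protein-coding nuclear genes. The 300-base windows of CPK1, CPK2 and CPK3 overlap other annotated genes, AT5G04880, AT3G10670 and AT4G23660 in this order. In 1000 bases, CPK2 has it as well, 942 bases before its start, and 18.9% of all genes do. The related motif CGCGTT was found in 300 bases on either strand for CPK29 alone of the 10, and in 3.08% of all genes; at CPK29 it overlaps the CGCG box. The upstream bases of CPK29 are shown because they hold the only such box in the 300-base windows of the 10 genes. Those of CPK6 are shown because it had no box and, with a pseudocount of 1, the lowest log2 ratio. Both are read 5′ to 3′ on the plus strand of TAIR10.1, and capitals mark the joined CGCG box and CGCGTT. The CPK29 stretch is chr1:28537293-28537489, the part of the 300-base window before bases that the assembly gives as N, and the CPK6 stretch is chr2:7516030-7516329, just before the gene start.
CPK29: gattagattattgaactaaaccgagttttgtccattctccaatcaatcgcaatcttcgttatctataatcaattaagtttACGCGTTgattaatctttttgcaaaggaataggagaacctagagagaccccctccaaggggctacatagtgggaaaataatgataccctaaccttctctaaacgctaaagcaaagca
CPK6: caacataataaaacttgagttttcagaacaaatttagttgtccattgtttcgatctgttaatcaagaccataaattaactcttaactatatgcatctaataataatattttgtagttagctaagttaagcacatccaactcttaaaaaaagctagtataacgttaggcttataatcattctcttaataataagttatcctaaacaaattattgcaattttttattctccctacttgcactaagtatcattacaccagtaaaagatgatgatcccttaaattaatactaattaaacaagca

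The box of CPK29 starts 220 bases before the gene start, a count that includes 100 bases given as N between box and start. Its true distance is therefore uncertain. Of the other motifs searched on both strands, ACGTG, the core of abscisic acid responsive elements, was in the 300 bases of 0 of the 10 genes and of 25.6% of all genes. In 1000 bases it was found for CPK1, CPK5, CPK6, CPK28 and CPK32, and for 54.4% of all genes. TTGAC, the core of the W box of WRKY factors, was in the 300 bases of 6 of the 10 and of 50.4% of all genes, and in the 1000 bases of all 10 and of 88.1%. A match is a description of letters, not of binding.

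Of the other 24 CPK genes, 14 passed the filter of 1 FPKM, 10 lower and 4 higher in the mutant, or 8 and 6 when scaled to a median of 0. Among all analysed loci the share lower was 64.6%, or 50.0% when scaled. None of the 14 reached 1.5-fold on the log2(FPKM + 1) scale. By plain FPKM, CPK15 was at least 1.5-fold lower. Of the 14, 3 were among the lowest 10% of all analysed loci by log2 ratio: CPK15, CPK31 and CPK10. The median log2 ratio of the 14 was -0.07, beside -0.27 for the 10 genes described above and -0.06 for all analysed loci; with 1 value per genotype this difference has no test. The lowest was CPK15 (AT4G21940), with a log2 ratio of -0.41, at 2.55 FPKM in wild-type plants and 1.67 in the mutant. CPK31 (AT4G04695) was 8.88 and 7.00 FPKM and CPK10 (AT1G18890) 8.19 and 6.47, with log2 ratios of -0.31 and -0.30, and CPK33 (AT1G50700) was 3.32 and 2.70. The most abundant of this group, CPK13 (AT3G51850), was nearly level at 28.3 and 27.0 FPKM, as was CPK21 (AT4G04720) at 21.4 and 21.0. CPK8 (AT5G19450) was 19.0 and 17.1, CPK9 (AT3G20410) 10.8 and 9.72, CPK23 (AT4G04740) 9.77 and 9.34, and CPK26 (AT4G38230) 4.43 and 4.19. Higher in the mutant, besides CPK12, were CPK27 (AT4G04700) at 2.59 and 3.02, CPK7 (AT5G12480) at 13.3 and 13.6, and CPK30 (AT1G74740) at 3.43 and 3.44. The remaining 10 CPK genes were below the filter, 5 of them listed at 0 in both genotypes.

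CPK genes fall into subgroups by sequence, and the summed FPKM of each subgroup was lower in the mutant. The sum over all analysed loci also changed, by -1.92%, and 64.6% of these loci were lower. Subgroups III and IV changed by -6.60% and -6.65%, and subgroups I and II by -12.6% and -13.7%. Subgroup I, which holds CPK1, CPK2, CPK4, CPK5, CPK6 and CPK11, summed to 92.6 FPKM in wild-type plants and 81.0 in the mutant. Subgroup II, with CPK3 and CPK29, summed to 113 and 98.0. Subgroup III, with CPK32, summed to 82.1 and 76.7. In subgroup IV, CPK28 was the one gene above the filter. Sums are dominated by the abundant genes, CPK3 and CPK5 among them.

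**Figure D4:**
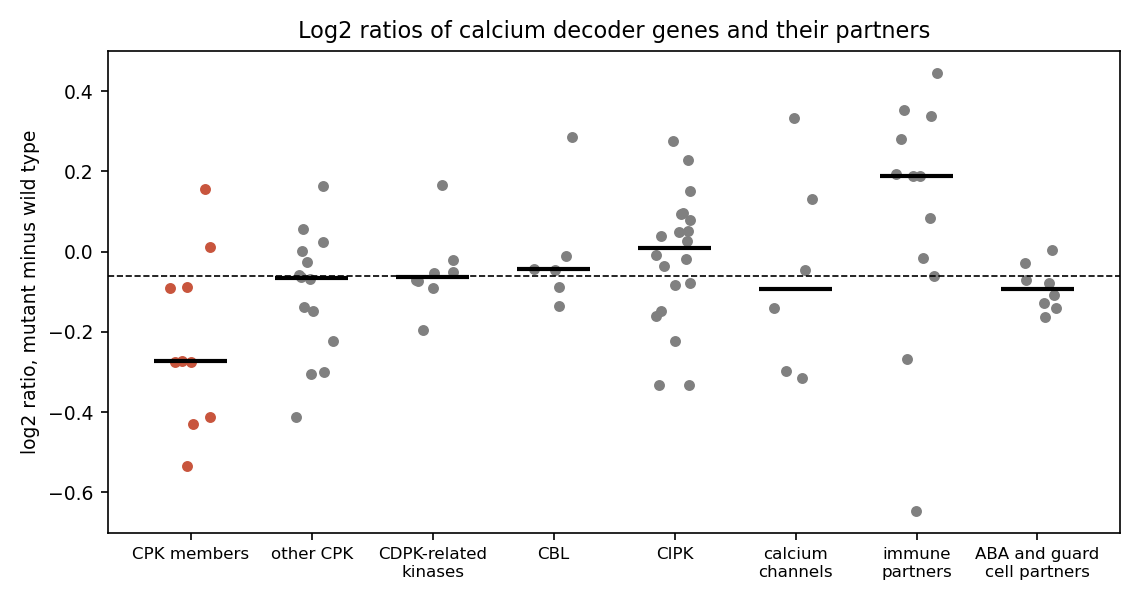
Log2 ratio of each analysed gene, mutant minus wild type of log2(FPKM + 1), for the CPK genes described here (red) and 7 related lists (grey); short bars mark each list's median and the dashed line the median of all analysed loci. The median of the CPK genes described here is -0.27, that of the immune partners 0.19, and those of the other lists lie between -0.09 and 0.01.

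Other lists of calcium decoders had medians close to that of all analysed loci, while single genes differed more. Of all analysed loci, 64.6% were lower in the mutant, or 50.0% when scaled to a median of 0. CDPK-related kinases, which share the kinase architecture of CPKs but have degenerate calcium-binding sites, were lower in 7 of 8 loci, or in 4 of 8 when scaled to a median of 0, with a median log2 ratio of -0.06. RefSeq describes part of these loci only as kinases, and they are named here by locus. The locus AT5G24430 was 7.11 FPKM in wild-type plants and 6.08 in the mutant, and AT3G19100 was 18.9 and 21.3. AT3G56760 was 16.6 and 15.5, and AT3G50530 was 20.2 and 19.1. Calcineurin B-like (CBL) calcium sensors were lower in 5 of 6 analysed genes, or 2 of 6 when scaled, with a median of -0.04. CBL4, known as SOS3 of the salt response, was 1.49 and 2.04 FPKM, CBL1 was 9.86 and 8.89, CBL3 was 33.1 and 31.0, and CBL10 was 37.8 and 36.6. The CBL-interacting kinases (CIPKs) were lower in 10 and higher in 10 of 20 analysed genes, or 7 and 13 when scaled, with a median of 0.01. CIPK7 was 40.8 and 32.2 FPKM, CIPK11 was 1.88 and 1.28, CIPK1 was 8.94 and 11.0, and CIPK17 was 1.60 and 2.04. CIPK7 and CIPK11, each with a log2 ratio of -0.33, were among the lowest 10% of all analysed loci. No analysed CBL gene or CDPK-related kinase was.

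Genes that act before CPKs, calcium channels, went both ways. Of 6 analysed loci 4 were lower and 2 higher, or 3 and 3 when scaled, with a median log2 ratio of -0.09. Over all analysed loci, 64.6% were lower. CNGC4, a cyclic nucleotide-gated channel of immunity, was 17.3 FPKM in wild-type plants and 22.1 in the mutant. CNGC20 was 12.0 and 9.58, the osmosensing channel gene OSCA1 was 58.7 and 53.2, and AT1G11960, which RefSeq describes as an ERD family protein, was 9.86 and 7.73. CNGC20 and AT1G11960 were among the lowest 10% of all analysed loci by log2 ratio.

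Most immune partners and targets of CPKs were higher in the mutant, unlike most of the kinases. With 1 value per genotype this contrast has no test. Of 12 analysed genes 8 were higher and 4 lower in the mutant, or 10 and 2 when scaled, with a median log2 ratio of 0.19. Of all analysed loci, 35.4% were higher and 64.6% lower, and 50.0% were lower when scaled. RBOHD, the oxidase that CPK5 phosphorylates, was 17.2 FPKM in wild-type plants and 22.0 in the mutant. WRKY8, a transcription factor phosphorylated by CPK4, CPK5, CPK6 and CPK11, was 1.45 and 2.34. The chitin receptor LYK5 stood at the other end, at 4.11 and 2.27, and was the one gene of this list at least 1.5-fold lower. Partners in abscisic acid and guard cell signalling were lower in 7 of 8 genes, or 6 of 8 when scaled, by small amounts. Their median was -0.09, beside -0.06 for all analysed loci. The phosphatase genes ABI1, at 25.3 and 23.4 FPKM, and ABI2, at 6.38 and 5.75, are examples beside SLAC1 and SLAH3.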

How the data were processed

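The deposited table holds FPKM values that the authors made, 1 per genotype and locus, per the file headers. TopHat 1.4.1, Cufflinks 2.1.1 and Cuffdiff, with the build TAIR10, are named per the submitters' processing notes; the sources used here do not state strandedness, read length or the treatment of shared reads. With 1 value per genotype, no test, error or replicate check was possible, and FPKM gives no depth. Log2 ratios used a pseudocount of 1 and loci with at least 1 FPKM in at least 1 genotype (18547 of 33557). The ratio calculation was run on wild-type values with known differences put in and no noise added. That checks the arithmetic and not the reliability of the ratios.

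The genes and lists were chosen with earlier results of these data known. Named are every member, every other CPK gene that passed the filter, up to 4 analysed genes of each further list with the highest absolute log2 ratio, and the targeted genes. Outside this rule, the markers serve as checks of tissue, and PUB25 and PUB26 were named after their values were seen. Alternatives were other pseudocounts, other filters and scaling to a median of 0. Sequences and symbols came from RefSeq (TAIR10.1), in which all 127 list entries matched by locus. Proteins were not analysed here. Coding sequences were aligned globally (Biopython 1.88). Python 3.11.15, numpy 2.4.6, pandas 2.3.3 and matplotlib 3.10.9 were used.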

Additional observations from a re-analysis of the deposited data

How the results depend on the processing

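All 10 CPK genes kept the direction of their log2 ratio under each of the 7 alternatives in which they had a value. Other pseudocounts and filters cannot change the direction of a gene, so only the scalings to a median of 0 could have done so. The number of members at or beyond 1.5-fold, 0 with a pseudocount of 1, was 2 with a pseudocount of 0.1, 1 with 0.5 and 2 without a pseudocount, which act on the low genes CPK2 and CPK6. CPK2 ranged from -0.80 to -0.35 and CPK6 from -0.73 to -0.47. With a pseudocount of 0.1 and without one, CPK2 in place of CPK6 had the lowest log2 ratio of the 10. A filter of 5 FPKM left 8 members, without CPK2 and CPK6, 6 of them lower, and their median was -0.18 in place of -0.27. CPK11, higher in the mutant, passed this filter only through its mutant value of 5.11 FPKM, beside 4.48 in the wild type. The shift of the median therefore rests in part on CPK11. The same filter left NLP7 alone of the 2 nitrate genes, at 0.15 in place of a median of -0.02. Scaling to a median of 0 gave a member median of -0.21, as did protein-coding nuclear loci alone with that scaling, an alternative chosen after seeing the data. No paired analysis was possible because the table has 1 combined value per genotype, and for the same reason no replicate could be left out. Depth is unknown.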
